A study of Mus musculus with 9 samples.

Results

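Integrins are heterodimers of an alpha and a beta subunit that bind the extracellular matrix or counter-receptors on neighbouring cells, and focal adhesion proteins tie their cytoplasmic tails to actin and to kinases. Both sets were followed here as mRNA in mouse intrahepatic cholangiocarcinoma (iCCA) cells with and without CRISPR/Cas9 targeting of *Vcam1*, a cell surface adhesion molecule that is itself a ligand of certain integrins. The members were chosen by gene symbol: 12 integrin alpha subunits, 8 integrin beta subunits and 16 cytoplasmic proteins of the adhesion site, 36 of the 55276 gene symbols in the table. All 36 had counts and passed the filter on low counts, which the libraries of 1 group could satisfy alone. The cells were PPTR cells, a 2D line grown from liver cancer organoids whose alleles, shared by every group, included *Prom1*CreERT2, which drives recombination in cells that express prominin, and the reporter *Rosa-ZsGreen*. The 3 groups were *Vcam1*ctrl (labelled WT) and the knockout clones *Vcam1*KO1 and *Vcam1*KO2, made with a guide in exon 2 of *Vcam1*, with 3 libraries each. The study took its libraries at different passages, so p-values measure the spread between cultures of one line or one clone. Each knockout group descends from 1 cell, and an effect of *Vcam1* and a property of the founder cell cannot be told apart within a clone.

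The libraries held 53415907 to 125223073 estimated counts. The third KO1 library stood apart from its group, with a chi-square per degree of freedom of 240.3 and 274.6 against the other KO1 libraries, which differed from each other by 36.04, and with the lowest summed level of 10 proliferation genes. The third KO2 library stood apart likewise (165.6 and 113.0 against 35.77 between the others) and had the highest such sum, 1929 CPM. The control libraries differed from each other by 84.44 to 169.3. Levels are given as CPM, the count of a gene relative to the TMM-scaled size of its library. *Vcam1* mRNA was at 248, 220 and 329 CPM in control, 98.8, 92.4 and 128 in KO1 and 119, 99.4 and 83.0 in KO2, a log2 fold change of -1.36 ± 0.17 (SE) in KO against control (edgeR adjusted p = 0.00021), and counts over a whole gene do not show whether its reading frame is intact. The paper reported from quantitative RT-PCR and flow cytometry that both clones had lost Vcam1 expression. RT-PCR also measures mRNA, whereas the counts here still held *Vcam1* mRNA in both clones at the levels given. The reason for this difference was not tested. Of 10 biliary and simple epithelial markers, 7 fell in KO and 1, *Spp1*, rose. *Krt19* went from 2129, 2341 and 2406 CPM in control to 0.0898, 0.0730 and 0.0160 in KO1 and 0.103, 0.226 and 0.118 in KO2, and *Cldn4* was at 0 in all KO2 libraries. *Spp1* held the summed level of that list at 10620 to 11080 CPM in KO1 and 7635 to 11080 in KO2, against 13570 to 15250 in control. Of 12 fibroblast and stellate markers 9 were tested and 7 rose in both clones combined, with sums of 431.3 to 836.9 CPM in control, 12560 to 15970 in KO1 and 6770 to 9111 in KO2, while *Lum* was at 0 in control and *Thy1* stayed under 1 CPM in every group mean. In KO1 alone 6 rose and 1, *Dcn*, fell. Group means of *Dcn* were 74.6 CPM in control, 4.34 in KO1 (edgeR adjusted p = 0.000222) and 92.0 in KO2. Of 10 leukocyte markers 5 were tested, 3 fell and 1 rose, and they summed to 7.203 to 21.15 CPM over the libraries, with *Cd3e* and *Adgre1* at 0 in control. Of 10 endothelial markers 5 were tested, 1 rose and 1 fell, with sums of 2.44 to 15.25 CPM. All 6 tested hepatocyte markers fell in both clones combined and 5 fell in KO1 alone, while *Alb* and *Apoa1* overlapped control in the combined comparison. The list summed to 252.8 to 448.5 CPM in control and to at most 3.049 in the clones. Most of the control sum was *Hnf4a*, which was at 208, 207 and 264 CPM in control and at 0 in both clones. The 10 proliferation genes summed to 547 to 1170 CPM in control, 130.4 to 1071 in KO1 and 1070 to 1929 in KO2. The epithelial, fibroblast and hepatocyte lists moved with the integrin results below, and their part in those results was not tested. In bulk RNA, fewer cells of a type and less RNA per cell cannot be told apart.

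Which matrix an integrin binds is set mostly by its alpha subunit. By background knowledge, the alpha subunits encoded by *Itga3*, *Itga6* and *Itga7* bind laminins, those of *Itga1*, *Itga2*, *Itga10* and *Itga11* bind collagens, and those of *Itga5*, *Itga8* and *Itgav* bind proteins with an RGD motif such as fibronectin. The subunits encoded by *Itga4* and *Itga9* bind Vcam1 among other ligands. In epithelia, the pair of *Itga6* and *Itgb4* products anchors the basal surface to laminin in hemidesmosomes, which connect to keratin rather than actin. Talins and kindlins bind beta tails and switch integrins on, and the complex of integrin-linked kinase, a PINCH protein and a parvin connects the tails to actin.

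Compared per length, as CPM per kilobase of exon, *Itga3* was the highest of the 36 members in control cells at 335, and its range did not overlap that of *Itgb1*, the common beta partner, at 139. *Itgb4* followed at 110, and its range overlapped that of *Itgb1*. In KO1 the highest were *Itgb5* (165) and *Itgb1* (151), with overlapping ranges and *Itgb1* the higher in the first and second KO1 libraries, and in KO2 *Itgb1* (137) and *Itga5* (104). At the other end, *Itga4*, *Itga11*, *Itga10* and *Itgb6* stayed under 1 CPM per kilobase in all groups.

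**Figure D1:**
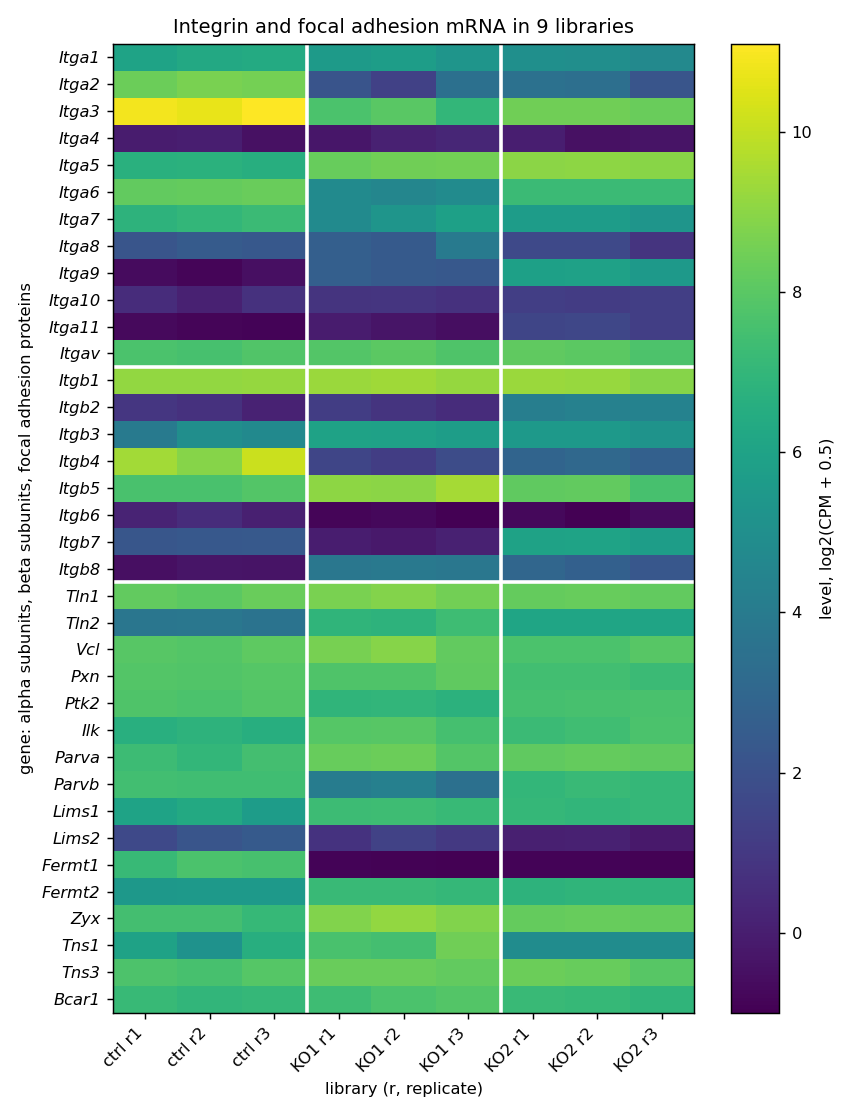
Levels of the 36 members in each of the 9 libraries, as log2 of CPM plus 0.5 (colour), with genes in rows grouped as alpha subunits, beta subunits and focal adhesion proteins and libraries in columns by group. *Itga2*, *Itga3*, *Itgb4* and *Fermt1* are bright in the 3 control libraries and darker in all 6 knockout libraries, while *Itgb7* and *Itga9* are brightest in the 3 KO2 libraries.

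The study compared the clones with control cells to ask whether Vcam1 takes part in epithelial-to-mesenchymal transition of the tumor cells. Against control, 12 members rose and 8 fell in both clones combined (6 libraries against 3, edgeR quasi-likelihood test, adjusted p under 0.05), against a background of 21.7% of all tested genes higher and 21.2% lower, and 16 did not pass. The share of members called higher was 33.3% and lower 22.2%, so the share lower was near the background, here and in each clone. The levels of 24 members (66.7%) did not overlap between the groups, against 44.2% of all genes. The median log2 fold change of the members was 0.31, against 0.07 over all genes. In KO1 alone 17 members rose and 12 fell (47.2% and 33.3%, against a background of 29.9% and 30.0%), and in KO2 alone 15 rose and 11 fell (41.7% and 30.6%, background 25.3% and 26.1%). The clone comparisons share the same control libraries, so their values are given side by side for each member. Among the 20 integrin subunits the combined comparison called 5 higher and 6 lower (25% and 30%), against the same background of 21.7% and 21.2%. The share of integrin subunits called higher was thus near the background. Among the 16 cytoplasmic proteins 7 were higher and 2 lower (43.8% and 12.5%).

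**Figure D2:**
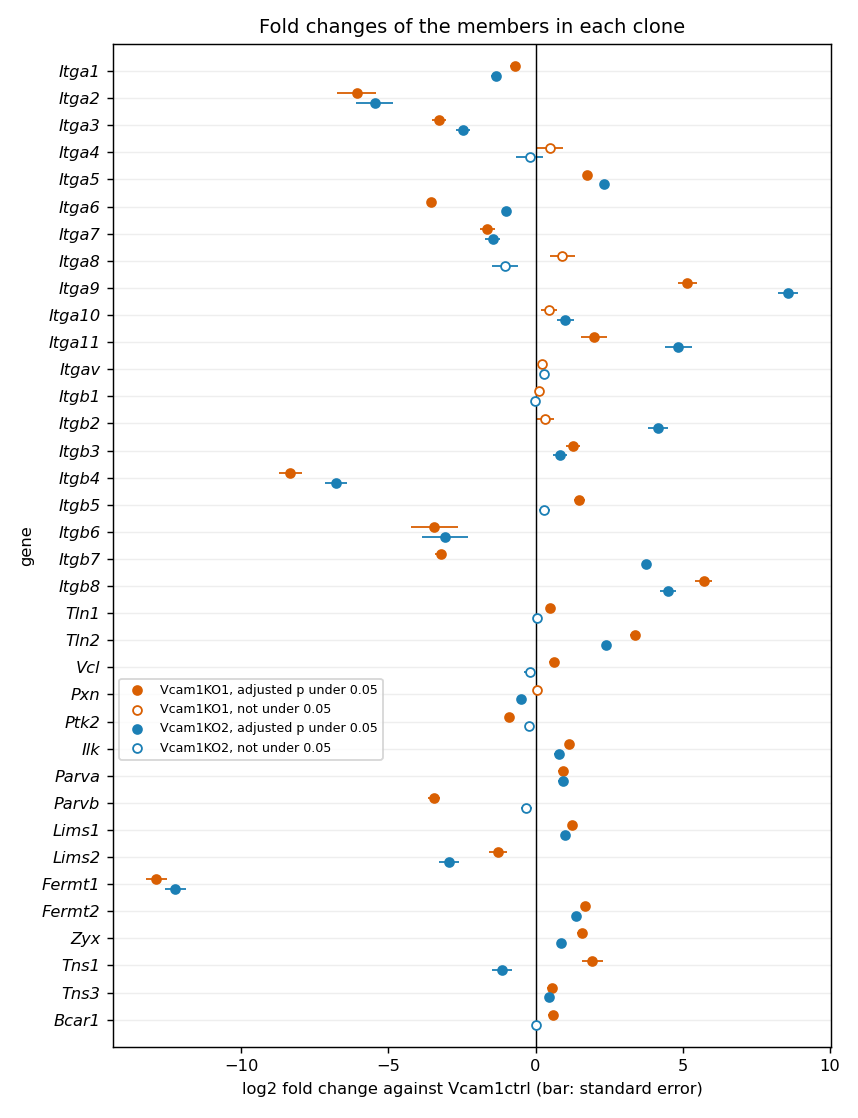
Log2 fold change of each member against control (horizontal axis, bars are standard errors) in KO1 and KO2, from the edgeR fit over 9 libraries. Filled points have an adjusted p under 0.05; *Fermt1*, *Itgb4* and *Itga2* lie farthest to the left in both clones, *Itga9* lies farthest to the right in KO2, and *Itgb7* and *Tns1* have points on opposite sides of 0.

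Promoter sequence is shown for 4 members, pairs of related genes that moved in opposite directions in both clones: the kindlins *Fermt1* (lower) and *Fermt2* (higher), the collagen-binding subunit *Itga2* (lower) and the fibronectin-binding subunit *Itga5* (higher). The stretches come from RefSeq with build GRCm38.p6, lie on the minus strand upstream of the annotated start, and have their CG dinucleotides in capitals: *Fermt1* at chr2:132946037-132946286, *Fermt2* at chr14:45530119-45530315, *Itga2* at chr13:114932101-114932350 and *Itga5* at chr15:103366792-103367041. The *Fermt2* stretch leaves out 53 bases that GENCODE vM21 places in the transcript.
Fermt1: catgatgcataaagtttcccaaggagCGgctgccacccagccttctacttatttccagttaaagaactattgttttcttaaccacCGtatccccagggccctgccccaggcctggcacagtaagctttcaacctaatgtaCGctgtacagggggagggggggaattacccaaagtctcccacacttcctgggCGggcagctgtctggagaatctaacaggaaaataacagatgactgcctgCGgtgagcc
Fermt2: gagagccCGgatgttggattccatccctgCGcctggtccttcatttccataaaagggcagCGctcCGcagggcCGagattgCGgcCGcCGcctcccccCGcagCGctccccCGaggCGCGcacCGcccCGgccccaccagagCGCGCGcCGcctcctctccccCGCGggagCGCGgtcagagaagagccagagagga
Itga2: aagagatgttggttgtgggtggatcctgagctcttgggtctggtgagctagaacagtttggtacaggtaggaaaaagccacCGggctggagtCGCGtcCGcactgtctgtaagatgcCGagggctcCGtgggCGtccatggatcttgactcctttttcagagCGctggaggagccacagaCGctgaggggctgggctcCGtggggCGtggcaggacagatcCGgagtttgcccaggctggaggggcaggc
Itga5: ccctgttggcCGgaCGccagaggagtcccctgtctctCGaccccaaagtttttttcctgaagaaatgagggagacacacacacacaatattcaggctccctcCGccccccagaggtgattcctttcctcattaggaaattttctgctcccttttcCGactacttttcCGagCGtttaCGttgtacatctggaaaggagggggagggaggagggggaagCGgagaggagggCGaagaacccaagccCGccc
The *Fermt1* stretch held 5 CG dinucleotides in 250 bases and the *Fermt2* stretch 23 in 197 bases, while *Itga2* held 12 and *Itga5* 11 in 250 bases each. Windows of 250 bases were matched for 26 of the 36 members (32 windows), and their median was 13.5 CG dinucleotides against 6 over all 32851 windows. The E-box CACCTG, searched on both strands, occurred in 21.9% of the members' windows and in 17.2% of all windows, and in none of the 4 genes shown. The CArG box, the motif of serum response factor, occurred in 9.38% of the members' windows (*Fermt2*, *Vcl* and *Itgb6*) and in 1.47% of all windows. A letter match is not a binding site, and methylation or binding at these stretches was not measured.

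Transcripts of the laminin-binding integrins were lower in the clones. *Itga3* was at 1870, 1668 and 2197 CPM in control, 205, 256 and 128 in KO1 and 351, 360 and 320 in KO2. The groups did not overlap, and the log2 fold change was -3.28 ± 0.25 (SE) in KO1 and -2.48 ± 0.24 in KO2 (edgeR adjusted p = 4.25e-06 and 2.59e-05). *Itgb4*, whose product pairs only with the alpha subunit from *Itga6*, was at 697, 486 and 1128 CPM in control, 2.41, 1.80 and 3.001 in KO1 and 6.97, 8.12 and 6.15 in KO2. It was 321-fold lower in KO1 and 109-fold lower in KO2 (adjusted p = 3.18e-07 and 8.83e-07), the largest fall among the beta subunits in each clone. *Itga6* itself was at 295, 301 and 325 CPM in control, 27.2, 23.1 and 28.4 in KO1 and 150, 152 and 152 in KO2, so that KO2 lay between KO1 and control. Its log2 fold change was -3.55 ± 0.12 in KO1 (adjusted p = 5.94e-08) and -1.02 ± 0.11 in KO2 (4.37e-05), whereas in the combined comparison, where the gap between the clones counts as spread, it was -1.79 ± 0.66 with an adjusted p of 0.0518, or 0.0301 by limma-voom and 0.0166 by DESeq2. *Itga7*, the laminin receptor best known from muscle, fell from 130 ± 18.2 CPM (SD, n = 3) to 41.7 ± 15.9 in KO1 and 47.4 ± 7.57 in KO2 (adjusted p = 0.000444 and 0.00111).

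The laminin chains themselves moved in both directions. *Lamb3*, which encodes a laminin beta chain of epithelia, fell from 255, 272 and 279 CPM in control to 0.644, 0.428 and 0.990 in KO1 and 2.02, 2.45 and 4.38 in KO2, a log2 fold change of -7.21 ± 0.68 for both clones (adjusted p = 3.71e-05). *Lama5*, the main laminin alpha chain of many epithelial basement membranes, changed by -2.20 ± 0.58 (adjusted p = 0.0127), and the third KO1 library (764 CPM) was nearer to control than the other KO1 libraries (162 and 194). *Lama4*, a laminin chain of vessels and mesenchyme, rose instead, from 16.7 ± 4.71 CPM to 243 ± 65.0 in KO1 and 412 ± 17.8 in KO2 (log2 fold change 4.30 ± 0.38, adjusted p = 2.69e-05).

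Among the collagen-binding subunits, *Itga1* and *Itga2* fell and *Itga11* rose in each clone. *Itga2*, the major collagen receptor subunit of many epithelia, was at 332, 407 and 378 CPM in control, 3.97, 2.04 and 10.6 in KO1 and 10.9, 10.2 and 4.11 in KO2. It was 67.6-fold lower in KO1 and 44.2-fold lower in KO2 (edgeR adjusted p = 4.04e-05 and 8.12e-05). The third KO1 library held the most *Itga2* of that clone, and without it the log2 fold change in KO1 went from -6.08 to -6.96. *Itga1*, the other collagen receptor subunit of wide distribution, was at 64.2, 78.6 and 83.6 CPM in control, 47.7, 52.8 and 39.0 in KO1 and 32.4, 31.1 and 25.8 in KO2. Its log2 fold change was -0.70 ± 0.15 in KO1 and -1.34 ± 0.15 in KO2 (adjusted p = 0.00321 and 7.96e-05). *Itga1* shares 685 exon bases with the overlapping gene model *Gm49395*, so its reads are uncertain to that extent. *Itga11*, a collagen receptor subunit of fibroblasts, was at 0.112, 0.0554 and 0.0506 CPM in control, 0.449, 0.292 and 0.192 in KO1 and 2.37, 2.53 and 1.89 in KO2. It rose in both clones (by 2.0 ± 0.44 and 4.85 ± 0.45 on the log2 scale, adjusted p = 0.00334 and 1.86e-05), but the control rests on 21 counts in 3 libraries. In the combined comparison *Itga11* had an adjusted p of 0.0124, which became 0.0551 without the second control library and 0.0534 without the third. *Itga10*, a subunit known from cartilage, was at 0.572 to 1.15 CPM in control, 1.17 to 1.31 in KO1 and 1.75 to 1.87 in KO2 and passed the test in KO2 alone (adjusted p = 0.0139), and it shares 1739 exon bases with *Gm42957*.

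*Col1a1* and *Col3a1*, which encode chains of fibrillar collagens, ligands of these subunits, rose. *Col1a1* was at 107, 136 and 55.0 CPM in control, 8607, 7780 and 9204 in KO1 and 5008, 4998 and 4199 in KO2 (log2 fold change 6.06 ± 0.48, edgeR adjusted p = 1.42e-05). *Col3a1* rose by 4.88 ± 0.91 (adjusted p = 0.00224), with KO1 at 1675 ± 624 CPM (SD, n = 3) above KO2 at 336 ± 20.7. Both are also on the fibroblast and stellate marker list.

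The fibronectin receptor subunit *Itga5* rose as *Itga3* fell. It was at 101, 106 and 97.0 CPM in control, 309, 355 and 366 in KO1 and 513, 524 and 494 in KO2. The 3 groups did not overlap, and it was 3.39-fold higher in KO1 and 5.04-fold higher in KO2 (edgeR adjusted p = 1.3e-06 and 4.23e-07). Its beta partner *Itgb1* was at 562, 555 and 582 CPM in control, 614, 662 and 576 in KO1 and 613, 594 and 476 in KO2. No difference in *Itgb1* passed the test, with log2 fold changes of 0.12 ± 0.13 in KO1 and -0.01 ± 0.13 in KO2. *Fn1*, which encodes fibronectin, was at 4137, 2868 and 3224 CPM in control, 9994, 10550 and 7058 in KO1 and 8555, 8291 and 5614 in KO2 and rose by 1.29 ± 0.24 on the log2 scale (adjusted p = 0.00234).

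*Itgav*, the alpha partner of 5 of the beta subunits, was at 205, 192 and 226 CPM in control, 236, 267 and 217 in KO1 and 279, 262 and 213 in KO2. The groups overlapped and the log2 fold change of 0.24 ± 0.13 did not pass the test (edgeR adjusted p = 0.156), while 4 of those 5 partners passed the test in KO1. *Itgb5*, which forms a vitronectin receptor, was at 196, 196 and 236 CPM in control, 530, 518 and 715 in KO1 and 285, 296 and 190 in KO2. It rose in KO1 (1.49 ± 0.20, adjusted p = 0.000173, and 1.33 without the third KO1 library) and overlapped control in KO2 (0.30 ± 0.20, adjusted p = 0.237). *Itgb3*, the beta subunit of the classic vitronectin receptor, was at 14.9, 31.2 and 26.5 CPM in control, 62.6, 61.1 and 53.3 in KO1 and 46.5, 45.3 and 36.5 in KO2, above control in every knockout library (adjusted p = 0.00123 in KO1 and 0.016 in KO2). *Itgb8*, which binds latent TGF-beta, was at 0.207, 0.314 and 0.278 CPM in control, 13.3, 14.4 and 13.4 in KO1 and 7.59, 5.98 and 4.41 in KO2. This was a rise of 52.4-fold in KO1 and 22.8-fold in KO2 (adjusted p = 3.64e-07 and 1.4e-06). *Itgb6*, the epithelial beta subunit that also binds latent TGF-beta, was at 0.653, 0.941 and 0.531 CPM in control, 0.0599, 0.104 and 0.0160 in KO1 and 0.103, 0 and 0.148 in KO2. It fell (adjusted p = 0.0045 and 0.00914), with 175 counts in the control libraries against 15 in KO1 and 16 in KO2, so its log2 fold change depended on single libraries: it went from -3.44 to -4.14 in KO1 without the second KO1 library, and from -3.07 to -2.47 or -3.83 in KO2 without the second or the third KO2 library. *Itga8*, which pairs with *Itgb1*, was at 4.02, 5.09 and 4.57 CPM in control, 5.87, 4.92 and 15 in KO1 and 2.64, 2.73 and 1.24 in KO2. Neither clone passed the test for *Itga8* against control (adjusted p = 0.0982 and 0.0758), and its KO1 value rests on the third library, without which the log2 fold change went from 0.91 to 0.25.

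*Tgfb3*, a TGF-beta whose latent form carries an RGD motif, rose from 3.96 ± 0.971 CPM (SD, n = 3) in control to 143 ± 9.04 in KO1 and 62.0 ± 1.95 in KO2 (log2 fold change 4.70 ± 0.47, edgeR adjusted p = 5.85e-05). *Postn*, which encodes periostin, a matrix ligand of the *Itgav* pairs, was at 0.725, 0.535 and 0.0759 CPM in control, 2025, 2088 and 2926 in KO1 and 1580, 1499 and 550 in KO2 (log2 fold change 11.94 ± 1.03, adjusted p = 2.27e-05). *Thbs2*, a thrombospondin, fell from 16.3 ± 3.97 CPM to 2.62 ± 1.45 in KO1 and 1.01 ± 0.172 in KO2 (adjusted p = 0.000661).

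Summed per length, the alpha subunits amounted to 481.9 ± 50.1 CPM per kilobase (SD, n = 3) in control, 139.9 ± 12.1 in KO1 and 220.7 ± 12.4 in KO2. The beta subunits amounted to 313.6 ± 56.1, 328.9 ± 21.9 and 246.6 ± 37.5. The ratio of alpha to beta mRNA was therefore 1.55 ± 0.112 in control, 0.427 ± 0.0511 in KO1 and 0.905 ± 0.0960 in KO2, with no overlap between any of the groups. *Itga3* made up 69.3% ± 2.94 of the alpha sum in control, 24.4% ± 6.66 in KO1 and 27.3% ± 0.197 in KO2. *Itga5* made up 4.30% ± 0.601, 49.9% ± 4.79 and 46.9% ± 1.38. The leading alpha subunit was thus *Itga3* in the 3 control libraries and *Itga5* in the 6 knockout libraries. *Itgav* made up 4.02% ± 0.101, 16.0% ± 0.761 and 10.6% ± 0.927, while its level did not pass the test. On the beta side, *Itgb1* held 45.03% ± 6.54, 46.2% ± 5.61 and 55.9% ± 1.53. *Itgb4* held 34.0% ± 8.44 in control, 0.104% ± 0.0210 in KO1 and 0.411% ± 0.0356 in KO2. Its share thus went to under 1% in both clones. *Itgb5* held 18.9% ± 1.51, 50.04% ± 6.06 and 29.1% ± 2.53. Shares of a sum move together by construction, and mRNA per length does not give the amount of protein or of paired receptor.

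**Figure D3:**
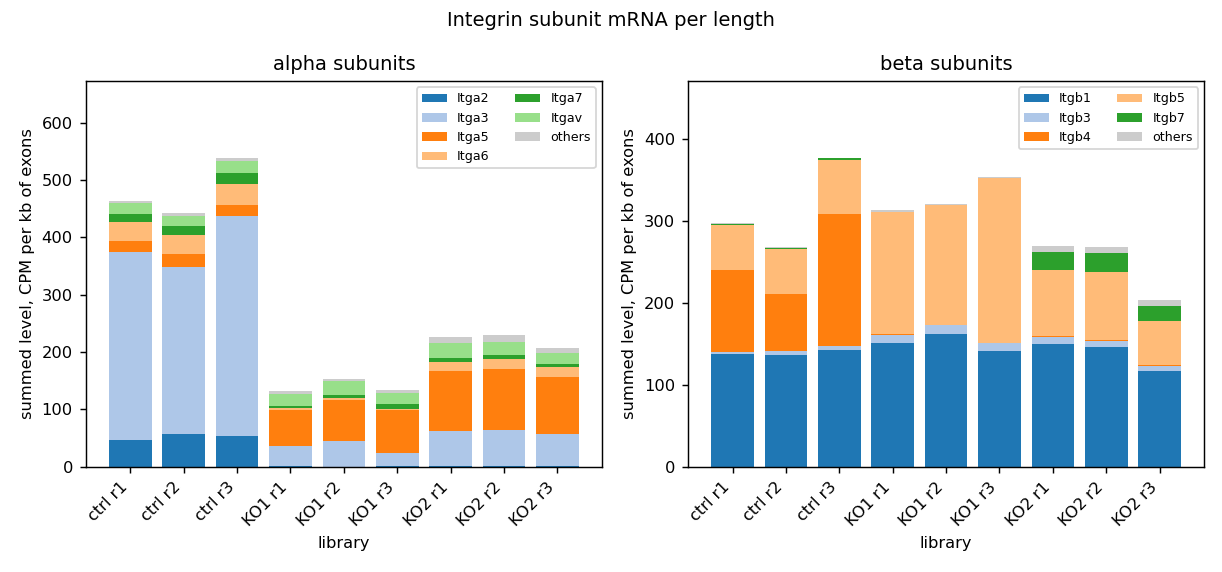
Summed level of alpha subunits (left) and beta subunits (right) in each of the 9 libraries, in CPM per kilobase of exon, stacked by gene with minor genes in grey. *Itga3* fills most of the control bars on the left and *Itga5* is the tallest segment in the knockout bars, while on the right the *Itgb4* segment of the control bars is barely visible in the knockout bars and *Itgb7* is seen in KO2.

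The receptors of Vcam1 itself were examined next. The known partners are the products of *Itga4* with *Itgb1* or *Itgb7* and of *Itga9* with *Itgb1*. *Itga4* was at 0.446, 0.517 and 0.228 CPM in control, 0.329, 0.584 and 0.750 in KO1 and 0.514, 0.240 and 0.281 in KO2, under 1 CPM in every library, and did not pass the test in any comparison. *Itga9* was at 0.136, 0.0554 and 0.215 CPM in control, 5.90, 4.85 and 4.49 in KO1 and 58.3, 60.6 and 44.95 in KO2. The 3 groups did not overlap, and *Itga9* rose by 5.15 ± 0.32 in KO1 and 8.58 ± 0.35 in KO2 on the log2 scale (edgeR adjusted p = 1.34e-06 and 1.86e-07), against 37 counts in the control libraries. KO2 held 10.8-fold more *Itga9* than KO1 (adjusted p = 2.16e-05). *Itgb7*, best known from lymphocytes, was at 4.21, 4.50 and 4.68 CPM in control, 0.479, 0.386 and 0.575 in KO1 and 63.2, 64.9 and 53.5 in KO2. It fell in KO1 (-3.23 ± 0.17, adjusted p = 5.58e-07) and rose in KO2 (3.76 ± 0.16, adjusted p = 2.62e-07), and the clones differed by 127-fold (adjusted p = 2.05e-07). Its other alpha partner, *Itgae*, was under 1 CPM in every library.

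*Itgb2*, the beta subunit of leukocyte integrins, was at 1.40, 1.16 and 0.620 CPM in control, 1.81, 1.24 and 0.958 in KO1 and 17.8, 19.2 and 19.9 in KO2. It rose in KO2 (4.15 ± 0.34 on the log2 scale, edgeR adjusted p = 9.59e-06) and overlapped control in KO1 (adjusted p = 0.399). For both clones combined its adjusted p was 0.0526 by edgeR and 0.00193 by DESeq2, and by edgeR 0.0251 to 0.0435 when any one of the KO1 libraries was left out, and it did not pass without any one of the control or KO2 libraries. Its alpha partners *Itgal*, *Itgam* and *Itgax* were under 1 CPM in every library and were not tested. Its remaining partner, *Itgad*, whose product can also bind Vcam1, was at 0.00797, 0 and 0.0632 CPM in control, 20.6, 27.5 and 10.8 in KO1 and 0.0514, 0.0283 and 0 in KO2. *Itgad* was thus highest in KO1 and *Itgb2* in KO2. The difference between the clones in *Itgad* was 9.50 ± 0.77 on the log2 scale (adjusted p = 2.94e-05). *Ptprc*, which marks leukocytes, was at 0.41 CPM in control and 0.0471 in each clone as group means, and *Cd3e* and *Adgre1* were at 0.00571 and 0.0246 CPM in KO2. *Cd68*, also on the leukocyte marker list, was at 5.53 CPM in control, 5.25 in KO1 and 7.95 in KO2. It did not pass the test against control (edgeR adjusted p = 0.173 in KO2). Of the 5 tested leukocyte markers, 1 rose and 3 fell in KO1, and 3 fell in KO2. The platelet subunit *Itga2b* was at 2.81 ± 1.15 CPM (SD, n = 3) in control, 6.99 ± 0.617 in KO1 and 4.403 ± 0.346 in KO2 and rose in the combined comparison (adjusted p = 0.0401).

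**Figure D4:**
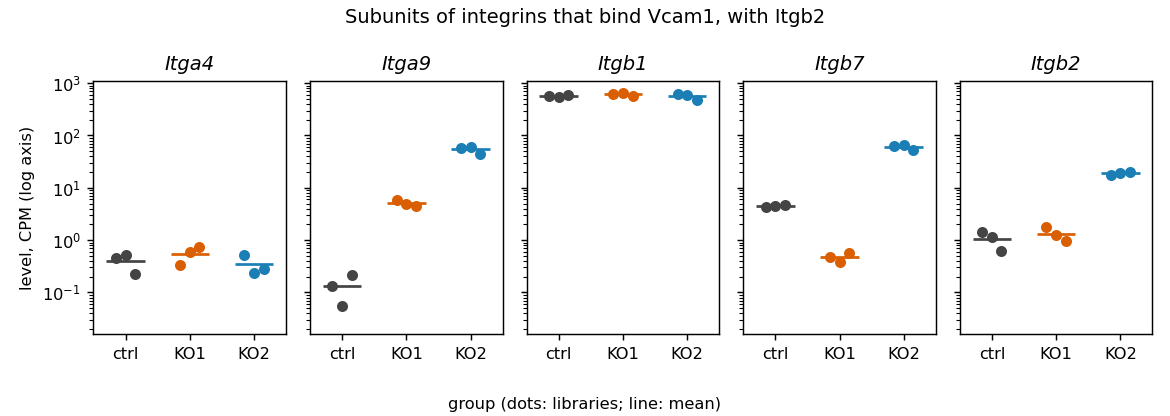
CPM on a log axis of *Itga4*, *Itga9*, *Itgb1*, *Itgb7* and *Itgb2* in the 9 libraries (dots) by group, with lines at the group means. *Itga4* stays under 1 CPM and *Itgb1* between 476 and 662 CPM, *Itga9* steps up from control to KO1 to KO2, and *Itgb7* is lowest in KO1 and highest in KO2.

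The kindlins, which bind beta tails beside talin, exchanged their order. *Fermt1*, the epithelial kindlin-1, was at 142, 204 and 192 CPM in control, 0.0449, 0.0209 and 0 in KO1 and 0.0343, 0.0424 and 0.0296 in KO2. This was 44075 counts in the 3 control libraries against 5 in KO1 and 7 in KO2, with at most 3 counts in any knockout library. Over both clones, *Fermt1* was 5955 times lower than in control, with a 95% interval of 3409 to 11530 from counting error alone, and it was the member with the largest absolute log2 fold change (-12.54, edgeR adjusted p = 6.43e-08). With so few counts the value in KO1 depends on single libraries, and went from -12.88 to -13.67 without the first KO1 library. *Fermt2*, the widely expressed kindlin-2, was at 42.7, 45.01 and 44.6 CPM in control, 146, 149 and 132 in KO1 and 112, 119 and 116 in KO2. It rose 3.22-fold in KO1 and 2.62-fold in KO2 (adjusted p = 6.06e-07 and 2.27e-06). Per length, *Fermt1* made up 78.5% ± 2.87 of the sum of both kindlins in control (SD, n = 3), 0.0136% ± 0.0140 in KO1 and 0.0279% ± 0.00465 in KO2. The sum itself was 31.5 for *Fermt1* plus 8.50 for *Fermt2* in CPM per kilobase in control, and *Fermt2* reached 27.4 in KO1 and 22.3 in KO2. *Fermt3*, the kindlin of blood cells, was at 1.31 ± 0.120 CPM in control and did not pass the test.

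The talins link beta tails to actin. *Tln1*, the common talin, was at 294, 268 and 319 CPM in control, 409, 464 and 371 in KO1 and 299, 309 and 296 in KO2. It rose in KO1 (0.50 ± 0.12 on the log2 scale, edgeR adjusted p = 0.00535), and KO2 overlapped control (0.04 ± 0.12, 0.808). *Tln2*, its paralog of muscle and brain, was at 13.2, 13.4 and 11.6 CPM in control, 121, 112 and 164 in KO1 and 67.9, 68.8 and 66.1 in KO2. It rose 10.4-fold in KO1 and 5.31-fold in KO2 (adjusted p = 2.77e-07 and 1.86e-06), and its share of talin mRNA per length went from 2.29% ± 0.356 (SD, n = 3) to 14.7% ± 3.94 in KO1 and 10.7% ± 0.0978 in KO2.

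In the complex of integrin-linked kinase, PINCH and parvin, the widely expressed member of each pair rose. *Ilk*, the scaffold of the complex, was at 97.8, 112 and 94.4 CPM in control, 238, 252 and 183 in KO1 and 154, 168 and 204 in KO2. It rose by 1.14 ± 0.16 in KO1 and 0.79 ± 0.16 in KO2 on the log2 scale (edgeR adjusted p = 0.000196 and 0.0022). *Lims1*, which encodes PINCH1, was at 64.8, 81.0 and 50.6 CPM in control, 158, 164 and 144 in KO1 and 134, 126 and 135 in KO2 (adjusted p = 0.000115 and 0.000533), above control in all 6 knockout libraries. *Lims2*, which encodes PINCH2 and made up 9.01% ± 3.76 of PINCH mRNA per length in control (SD, n = 3), was at 2.70, 4.10 and 4.86 CPM in control, 1.21, 2.10 and 1.52 in KO1 and 0.548, 0.566 and 0.399 in KO2. It fell (adjusted p = 0.00579 and 7.11e-05). In the combined comparison *Lims2* had an adjusted p of 0.0161, which became 0.0614 without the third control library. *Rsu1*, a PINCH1 partner on the list of other focal adhesion proteins, rose from 35.3 ± 4.24 CPM (SD, n = 3) to 128 ± 29.3 in KO1 and 101 ± 5.28 in KO2 (adjusted p = 0.00013 in the combined comparison).

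Of the parvins, which bind actin, *Parva* rose in both clones and *Parvb* fell in KO1. *Parva* was at 155, 128 and 177 CPM in control, 314, 333 and 236 in KO1 and 283, 300 and 285 in KO2, a rise of 0.94 ± 0.16 and 0.92 ± 0.16 on the log2 scale (edgeR adjusted p = 0.000785 and 0.00113). *Parvb* was at 170, 169 and 165 CPM in control, 16.3, 18.9 and 10.5 in KO1 and 127, 146 and 134 in KO2. It fell 11.03-fold in KO1 (adjusted p = 9.42e-07), while the log2 fold change of -0.31 ± 0.18 in KO2 did not pass (adjusted p = 0.187, or 0.0238 without the third KO1 library, which sets part of the common spread). The clones differed in *Parvb* by 8.89-fold (adjusted p = 8.55e-06), and *Parvb* made up 71.7% ± 3.56 of parvin mRNA per length in control, 10.5% ± 1.15 in KO1 and 51.8% ± 0.982 in KO2 (SD, n = 3). With the longest transcript as the length, these shares were 63.1%, 7.33% and 42.0%. Which parvin led in KO2 thus depended on the length used.

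**Figure D5:**
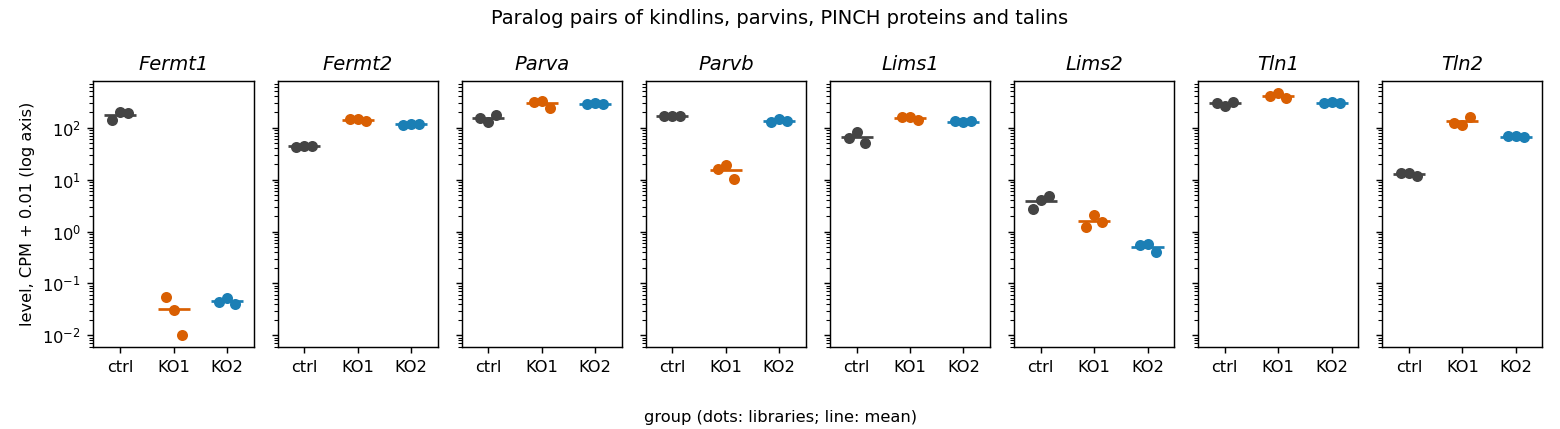
CPM plus 0.01, on a log axis, of 4 paralog pairs in the 9 libraries (dots) by group, with lines at the group means. *Fermt1* drops from over 100 CPM to the bottom of the axis in both clones while *Fermt2* rises, *Parvb* is low in KO1 alone, and *Lims1* and *Tln2* lie above control in both clones.

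The signalling members *Ptk2*, *Pxn* and *Bcar1* each passed the test in 1 clone. *Ptk2*, which encodes focal adhesion kinase, was at 220, 205 and 236 CPM in control, 120, 124 and 109 in KO1 and 186, 188 and 197 in KO2. It fell in KO1 (-0.91 ± 0.10 on the log2 scale, edgeR adjusted p = 5.12e-05) and was -0.21 ± 0.10 in KO2 (adjusted p = 0.107). *Pxn*, which encodes the adaptor paxillin, was at 235, 226 and 238 CPM in control, 218, 215 and 286 in KO1 and 172, 172 and 153 in KO2, and fell in KO2 (-0.49 ± 0.13, adjusted p = 0.0104). *Bcar1*, which encodes the adaptor p130Cas, was at 141, 125 and 134 CPM in control, 162, 204 and 231 in KO1 and 145, 137 and 122 in KO2, and rose in KO1 (0.58 ± 0.14, adjusted p = 0.00595). The contrast between the clones passed for each of the 3 (adjusted p = 0.000797, 0.0103 and 0.0122), though that for *Bcar1* became 0.0578 without the third KO2 library.

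*Vcl*, which encodes vinculin, a link from talin to actin, was at 251, 229 and 274 CPM in control, 389, 480 and 292 in KO1 and 207, 203 and 247 in KO2. It rose in KO1 (0.62 ± 0.18 on the log2 scale, edgeR adjusted p = 0.0137), a call lost without the second control library (0.0825) and without the first (0.0564) or the second KO1 library (0.054). *Zyx*, whose product zyxin gathers at adhesions under tension, was at 176, 181 and 139 CPM in control, 450, 565 and 454 in KO1 and 300, 311 and 298 in KO2. It rose 2.96-fold in KO1 and 1.83-fold in KO2 (adjusted p = 1.36e-05 and 0.000625), with no overlap between the 3 groups. *Tns1*, a tensin of fibrillar adhesions, was at 62.3, 35.8 and 94.6 CPM in control, 195, 178 and 356 in KO1 and 28.8, 28.7 and 30.3 in KO2. It rose in KO1 (1.92 ± 0.36, adjusted p = 0.00122, and 1.54 without the third KO1 library) and fell in KO2 (-1.14 ± 0.35, adjusted p = 0.0217). The fall in KO2 did not pass without the third control library (0.0851) or without any one of the KO2 libraries (0.0519 to 0.0623). *Tns3* was at 212, 190 and 242 CPM in control, 324, 326 and 290 in KO1 and 329, 312 and 248 in KO2. It rose by 0.50 ± 0.13 in the combined comparison (adjusted p = 0.0137), which became 0.0604 without the first control library and 0.0873 without the second. In KO2 *Tns3* did not pass without the first (0.0655) or second (0.0785) control library or the first (0.092) or second (0.0711) KO2 library, and in KO1 without the second control library (0.051).

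The direct contrast of the clones uses no control level, though the control libraries enter the estimate of the spread. KO1 was higher than KO2 in 13 members and lower in 10 (edgeR adjusted p under 0.05). These were 36.1% and 27.8% of the members, against a background of 20.2% of all tested genes higher and 18.5% lower. Among the 20 integrin subunits KO1 was higher in 4 and lower in 8 (20% and 40%), so the share higher was near the background. Among the 16 cytoplasmic members KO1 was higher in 9 and lower in 2 (56.2% and 12.5%). The widest gaps were in *Itgb7* (-6.99 ± 0.19 on the log2 scale), *Itgb2* (-3.83 ± 0.34), *Itga9* (-3.43 ± 0.26), *Parvb* (-3.15 ± 0.20), *Itga11* (-2.86 ± 0.39) and *Itga6* (-2.53 ± 0.11), all lower in KO1, and in *Tns1* (3.05 ± 0.37), higher in KO1. *Itga2* did not pass with all libraries (-0.61 ± 0.54, adjusted p = 0.395) and was -1.50 (adjusted p = 0.0243) without the third KO1 library. *Itga3* differed by -0.81 ± 0.23, a call lost without the first (edgeR adjusted p = 0.0514) or the second KO2 library (0.0643). *Tln1* was higher in KO1 by 0.46 ± 0.12, a call lost without the first (0.061) or second (0.0578) KO1 library or without the first (0.0752) or the third (0.0663) KO2 library. *Itga8* was higher in KO1 by 1.96 ± 0.45 (adjusted p = 0.00823), and by 1.29 without the third KO1 library.

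Outside the members, 52 of 53 other focal adhesion proteins were tested and 17 rose while 8 fell in the combined comparison, with a median log2 fold change of 0.19. These were 32.7% and 15.4% of the list, against 21.7% and 21.2% of all tested genes. In KO1 22 rose and 15 fell (42.3% and 28.8%, background 29.9% and 30.0%), and in KO2 19 rose and 13 fell (36.5% and 25%, background 25.3% and 26.1%). *Palld*, which encodes the actin-bundling palladin, rose by 2.56 ± 0.46 (edgeR adjusted p = 0.00181) and *Sorbs3*, which encodes vinexin, by 2.21 ± 0.14 (adjusted p = 4.35e-06). Of the actin elongation factors of the Ena/VASP family, *Enah* and *Evl* rose and *Vasp* fell. *Enah* was at 80.0, 71.7 and 64.8 CPM in control, 374, 363 and 347 in KO1 and 254, 237 and 230 in KO2 (edgeR adjusted p = 7.38e-05). *Evl* went from 21.9 ± 2.19 CPM (SD, n = 3) in control to 55.1 ± 9.76 in KO1 and 48.0 ± 2.08 in KO2 (adjusted p = 0.000149). *Vasp* was at 277, 330 and 251 CPM in control, 123, 125 and 117 in KO1 and 122, 130 and 124 in KO2 and fell (adjusted p = 2.47e-05). *Cib1*, *Pdlim5* and *Lasp1* fell, with log2 fold changes of -1.11 ± 0.13, -1.04 ± 0.14 and -1.02 ± 0.11.

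Of 35 integrin matrix ligands 34 were tested, and 19 rose while 4 fell in the combined comparison, with a median log2 fold change of 1.63. These were 55.9% and 11.8% of the list, against the same 21.7% and 21.2%. Those that fell included *Lamb3*, *Thbs2* and *Lama5*. Summed over the list, ligand mRNA was at 11390 to 13050 CPM in control, 44580 to 48080 in KO1 and 28650 to 37830 in KO2. A few abundant genes weighed most in this sum. *Fn1* had group means of 3410, 9202 and 7487 CPM in control, KO1 and KO2, and *Col1a1* had 99.4, 8530 and 4735. *Spp1*, *Col1a1*, *Col3a1* and *Postn* are also on the marker lists, so the sum is not independent of those lists. Of 10 immunoglobulin-family and cadherin counter-receptors 8 were tested, 2 rose and 5 fell. Those that fell included *Vcam1*, the gene targeted in the clones, so its fall says nothing about the other counter-receptors. They also included *Icam4*, which rests on few counts, with a group mean of 0.26 CPM in control. *Cdh1*, which encodes E-cadherin, a ligand of the *Itgae* and *Itgb7* pair, was at 466, 424 and 709 CPM in control, 1.41, 0.991 and 1.61 in KO1 and 0.703, 0.636 and 0.237 in KO2 (edgeR adjusted p = 3.01e-06). *Icam1*, a ligand of *Itgb2* integrins, was at 65.5, 39.2 and 61.9 CPM in control, 0.135, 0.250 and 0.575 in KO1 and 0.600, 0.467 and 0.311 in KO2 (adjusted p = 3.25e-06). *L1cam*, an immunoglobulin-family adhesion molecule with an RGD motif, rose from 23.0 ± 6.19 CPM (SD, n = 3) to 199 ± 45.1 in KO1 and 69.1 ± 18.03 in KO2, and *Jam2* from 12.2 ± 1.84 to 41.1 ± 6.96 and 35.3 ± 6.04 (adjusted p = 0.00472 and 0.000125). Of the 6 leukocyte and platelet subunits outside the members 3 were tested, and *Itga2b* and *Itgad* rose in the combined comparison and in KO1. Neither passed the test in KO2 (edgeR adjusted p = 0.0997 and 0.948).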

How the data were processed

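Total mRNA of PPTR cells was sequenced from stranded, paired-end libraries, 3 per group. The authors pseudoaligned reads with kallisto 0.46.1 to the GENCODE vM24 transcripts of GRCm38 and deposited estimated counts per gene symbol, which are whole numbers in the file. How transcripts were summed to genes and rounded is not given in the sources used here. Estimated counts split reads between similar transcripts by model, so overlapping genes and close paralogs carry more error than the count shows. The replicate numbers are in accession order and pair nothing.

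From the counts, TMM factors, CPM and fits were made with edgeR 4.0.16 in R 4.3.3 (filterByExpr, 17672 genes kept, quasi-likelihood test, Benjamini-Hochberg over all of them, threshold 0.05). Both clones against control used a 2-group fit in which differences between clones count as spread, and single clones a 3-group fit over all 9 libraries. Levels per kilobase used the union of exons in GENCODE vM21. Limma 3.58.1 (voom), DESeq2 1.42.0, other scalings, filters and samples were tried as alternatives, and the scripts were tested on simulated data. All members were reported, and from each other list up to 5 genes per direction with the largest change among those past the threshold, at 5 CPM or more and without overlap. *Krt19*, *Spp1*, *Thy1*, *Dcn*, *Alb*, *Apoa1*, *Ptprc*, *Cd68*, *Fn1*, *Fermt3*, *Evl* and *Icam4* were named outside that rule, after their values were seen. So were the genes of the closing section and the leukocyte and platelet subunits. The members and lists were chosen with earlier results of these data known. The interval for *Fermt1* is the exact Poisson interval of its counts in the clones. Certain genes and alleles are not reported here.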

Additional observations from a re-analysis of the deposited data

Results flagged for a closer look

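The clones differed from each other in 23 of the 36 members (13 higher and 10 lower in KO1, against a background of 20.2% of all tested genes higher and 18.5% lower), by the edgeR test of KO1 against KO2 over all 9 libraries (adjusted p under 0.05), which equals the difference between their log2 fold changes against the shared control. These differences, KO1 minus KO2 on the log2 scale, are given as values.

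Integrin subunits lower in KO1 were *Itga3* -0.81, *Itga5* -0.57, *Itga6* -2.53, *Itga9* -3.43, *Itga11* -2.86, *Itgb2* -3.83, *Itgb4* -1.56 and *Itgb7* -6.99. Those higher in KO1 were *Itga1* 0.64, *Itga8* 1.96, *Itgb5* 1.19 and *Itgb8* 1.20. Cytoplasmic members higher in KO1 were *Tln1* 0.46, *Tln2* 0.97, *Vcl* 0.82, *Pxn* 0.53, *Lims2* 1.67, *Fermt2* 0.30, *Zyx* 0.69, *Tns1* 3.05 and *Bcar1* 0.56, and those lower were *Ptk2* -0.69 and *Parvb* -3.15. In *Itgb7* and *Tns1* the clones lay on opposite sides of control, and each passed the test in each clone. In *Itga8* the third KO1 library, at 15 CPM, stood apart from the other 5 knockout libraries: its gap to the nearest was 0.664 of the range over all 6 on the CPM scale, past Dixon's 95% limit for 6 values. Chance alone passes that limit in about 1 in 20 groups, 36 members were looked at, and on the log2 scale none passed. The range over both clones includes the gap between them, and libraries within a clone, 3 each, were not tested.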

How the results depend on the processing

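The number of members called stayed within 1.5 times of the reported one under limma-voom, DESeq2, RLE and upper-quartile scaling, no filter, a filter at a mean of 1 CPM, fits on 6 libraries, the average of the clones' contrasts and each left-out library. With 1 library left out it was 18 to 23 for both clones combined (10 to 13 higher, 7 to 10 lower), 27 to 29 for KO1 (15 to 17 and 12), 24 to 28 for KO2 (14 to 15 and 10 to 13) and 20 to 25 between the clones (10 to 14 and 9 to 11). The combined count was 27 when the clones' contrasts were averaged, where *Itga6*, *Itga10*, *Itgb2*, *Itgb5*, *Tln1*, *Ptk2* and *Parvb* also passed. With DESeq2 *Itga8* (0.0304) and *Ptk2* (0.039) passed in KO2, and *Itga6* (0.0166), *Itga10* (0.0395), *Itgb2* (0.00193) and *Itgb5* (0.0335) in both clones combined. No called member changed sign under these alternatives. Without a filter, *Tns3* (adjusted p = 0.0651, edgeR) no longer passed for both clones and *Fermt2* (0.214) and *Tln1* (0.0606) no longer passed between the clones. The difference between the clones in *Fermt2* also failed when any one of 7 of the 9 libraries was left out. Levels per kilobase with the longest transcript in place of the exon union put *Itga3* at 64.4% of the alpha sum in control and *Itga5* at 44.2% in KO1. With that length *Parva* rather than *Parvb* led the parvins in KO2. No paired analysis was possible because the labels carry no replicate numbers.

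Values of a gene under about 1 CPM in a group rest on few counts. This holds for *Itga4* and *Itgb6* in all groups, *Itga9*, *Itga10* and *Itga11* in control, *Itga11* in KO1 and *Fermt1* in the clones. It also holds for *Itgb8* in control (65 counts over the group), *Itgb7* in KO1 (105) and *Lims2* in KO2 (99), so their fold changes need the same caution. A count of 3 corresponds to 0.024 to 0.0562 CPM in these libraries. Each knockout group is 1 clone, so p-values of single clones do not cover the spread between clones. Those for both combined draw on only 2 clones and count every knockout library as a separate replicate, so they do not fully cover that spread either. The mRNA levels were not compared with protein, receptor pairing or adhesion. The interval of *Fermt1* covers counting error only. *Fermt1* and *Itgb6* passed the filter on low counts through the control libraries, and *Itga9* and *Itga11* through those of the clones.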

Other observations

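Other ligands of the Vcam1 receptor subunits were measured in the same libraries. *Emilin1*, whose product is a matrix ligand of the integrins with the *Itga4* or *Itga9* product, was at 83.1, 56.3 and 34.3 CPM in control, 914, 845 and 1036 in KO1 and 570, 588 and 596 in KO2 and rose by 3.71 ± 0.37 on the log2 scale (edgeR adjusted p = 5.04e-05). *Tnc*, which encodes tenascin C, another *Itga9* ligand, was at 28.2, 46.8 and 44.99 CPM in control, 66.4, 86.0 and 39.0 in KO1 and 64.4, 57.8 and 56.6 in KO2, and KO1 overlapped control (adjusted p for both clones = 0.0679). *Madcam1*, the gut ligand of the *Itga4* and *Itgb7* pair, was under 1 CPM in every library.

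*Npnt* encodes nephronectin, the main ligand of the *Itga8* product. It was at 48.7, 50.9 and 68.4 CPM in control, 14.1, 18.5 and 78.9 in KO1 and 0.257, 0.141 and 0.0592 in KO2, so KO2 lay far below both other groups. The difference between the clones was 7.95 ± 0.85 on the log2 scale (edgeR adjusted p = 0.000156). *Itga8* was higher in KO1 than in KO2 as well, and no relation between the genes was tested.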
